A study of Mus musculus with 32 samples.

Results

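The effect of deleting only the β isoform of the carbohydrate response element-binding protein (ChREBP) on gene expression in brown adipose tissue was set against the effect of deleting both isoforms. For every gene, the contrast was the log2 difference of ChREBPβ KO from its WT littermates minus the log2 difference of total ChREBP KO from its own WT littermates. All 32 of the 32 arrays of the series and all 24521 of the 24521 gene names measured entered it, with groups taken from the sample titles. A positive value means that the gene stood higher after the loss of ChREBPβ than after the loss of both isoforms, each relative to its own WT.

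Interscapular brown adipose tissue was taken from 4 groups of 8 mice, with 1 array each. The animals were males on the C57BL6/J background. The ChREBPβ KO mice carry a deletion of the β-specific exon of Mlxipl, made by CRISPR/Cas9 in one-cell embryos, and the total ChREBP KO mice are Mlxipl-null. Both deletions are present in every tissue of the body, and each line was compared with WT littermates of that line. Mice of all 4 groups were fasted for 24 h and then refed for 18 h with 20% glucose in the drinking water. The KO contrasts share no array, so the 4 groups give separate measurements of each effect.

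ChREBP, encoded by Mlxipl, is a transcription factor that responds to glucose metabolites and binds, as a dimer with its partner Mlx, to carbohydrate response elements made of paired E-boxes. The long α isoform is held back in the cytosol when glucose is low. The β isoform is transcribed from an alternative first exon upstream, lacks the N-terminal inhibitory region, and is itself induced when ChREBP is active. In brown fat after refeeding, ChREBP is known for driving glycolysis and the synthesis of fatty acids from glucose, alongside the heat production for which the tissue is best known.

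The tissue label was checked against marker genes. All 8 brown fat markers were well above background in every group, and their summed level, on the log2 scale, ran from 19.69 to 20.03 over the 32 arrays, with 19.86 to 20.03 in total ChREBP KO against 19.74 to 19.87 in its WT. Of these 8, 3 were called up and 2 down in total ChREBP KO. General adipocyte markers stood at 19.41 to 19.64 in total ChREBP KO and 19.15 to 19.52 in its WT, with 5 of 7 called up there and 1 called up in ChREBPβ KO (19.21 to 19.37 against 19.24 to 19.39 in WT). Skeletal muscle markers stood higher in the total line than in the ChREBPβ line, with summed log2 levels of 13.76 to 16.99 in ChREBPβ WT, 13.78 to 16.53 in ChREBPβ KO, 17.57 to 20.51 in total WT and 19.05 to 20.35 in total ChREBP KO. None of the 18 muscle markers was called in either KO contrast or for the difference by limma, and none had an unadjusted p under 0.05 there. Liver markers spread widely, from 11.96 to 17.17 in the ChREBPβ line and from 11.88 to 15.28 in the total line, with 1 of 14 called in total ChREBP KO and none for the difference, where 1 had an unadjusted p under 0.05. Macrophage markers were lower in total ChREBP KO, at 14.28 to 14.53 against 14.69 to 15.10 in its WT, and 7 of 8 were called down there, while none was called, or had an unadjusted p under 0.05, in ChREBPβ KO. The summed Schwann cell level stood higher in both KO groups, at 14.89 to 15.24 in ChREBPβ KO against 13.74 to 14.71 in its WT and at 15.05 to 15.39 in total ChREBP KO against 13.22 to 14.10 in its WT, with 1 of 6 genes called up in each line. The list as a whole did not rise so, with median changes of 0.11 in ChREBPβ KO and -0.09 in total ChREBP KO. In the latter 2 genes were up and 1 down at an unadjusted p under 0.05. A sum of intensities is weighted towards its brightest genes. In whole tissue, fewer cells of a type and less RNA per cell cannot be told apart. Endothelial markers stood at 13.37 to 13.69 in total ChREBP KO and 13.63 to 13.87 in its WT, with 3 of 6 called higher for the difference. The share of spots well above background ranged from 64.4% to 71.1% over the arrays, and each of the 4 wash batches in the array records held all 4 groups.

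The targeted gene was examined first. The brightest of 3 Mlxipl probes, on chromosome 5 at 135613705 to 135613764 (mm9), read 16.14, 16.32 and 16.58 in ChREBPβ WT (lowest, median and highest log2 intensity of 8 arrays) and 14.71, 14.85 and 15.01 in ChREBPβ KO. The same probe read 15.95, 16.16 and 16.31 in total WT and 13.48, 13.61 and 13.86 in total ChREBP KO. The KO arrays lay below all WT arrays of their line, and every total ChREBP KO array lay below every ChREBPβ KO array, while the WT groups overlapped. The log2 fold change was -1.49 in ChREBPβ KO and -2.48 in total ChREBP KO, a difference of 1.00 ± 0.10 (SE) with a 95% interval of 0.80 to 1.19 (limma, adjusted p = 1.33e-09). The other probes did not follow it: that at 135614195 to 135614252 had a difference of -0.21 (adjusted p = 0.0689) and that at 135598483 to 135599113 one of -0.35 (adjusted p = 0.0766), and the mean of the 3 probes gave 0.14 (adjusted p = 0.232). The probe at 135598483 fell in both lines, by 1.13 in ChREBPβ KO and 0.78 in total ChREBP KO on the log2 scale. Whether any probe lies in a deleted exon was not examined, since no mm9 gene model was used here, so these values do not check the deletions themselves.

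Mlxipl has a pair of transcription starts in RefSeq (GRCm38.p6), 17001 bases apart. The 250 bases before each are printed because the β isoform begins at the upstream exon that was deleted in ChREBPβ KO, whereas the α isoform begins at the downstream one. Capitals mark CACGTG, the only form of the E-box counted as such here, which reads the same on both strands.
Mlxipl, upstream start, chr5:135089640-135089889, plus strand: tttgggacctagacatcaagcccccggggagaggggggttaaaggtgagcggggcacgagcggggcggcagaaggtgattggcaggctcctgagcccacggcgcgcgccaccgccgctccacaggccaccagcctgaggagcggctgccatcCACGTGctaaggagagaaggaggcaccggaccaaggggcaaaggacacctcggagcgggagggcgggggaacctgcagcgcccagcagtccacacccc
Mlxipl, downstream start, chr5:135106641-135106890, plus strand: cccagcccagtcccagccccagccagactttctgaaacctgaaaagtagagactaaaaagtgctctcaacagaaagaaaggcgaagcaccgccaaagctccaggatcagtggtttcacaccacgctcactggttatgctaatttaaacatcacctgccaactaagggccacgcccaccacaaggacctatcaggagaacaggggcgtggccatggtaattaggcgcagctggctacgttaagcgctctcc
Vps37d, chr5:135078267-135078516, minus strand: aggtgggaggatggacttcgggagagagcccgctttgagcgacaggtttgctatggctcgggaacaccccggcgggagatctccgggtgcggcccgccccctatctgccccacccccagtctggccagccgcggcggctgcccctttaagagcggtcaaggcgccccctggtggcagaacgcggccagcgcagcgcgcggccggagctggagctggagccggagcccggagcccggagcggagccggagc
The upstream window holds CACGTG and the downstream window does not. Of 32851 RefSeq promoter windows of 300 bases (250 before and 50 after a start), 7.15% held CACGTG, and 9 held the degenerate carbohydrate response element consensus searched by name on both strands. Vps37d is the neighbour of Mlxipl on its upstream side and codes for a subunit of the ESCRT-I sorting complex. No CACGTG was found in its window, which says only that these letters are not in it.

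Vps37d had the largest falls among the genes with like effects, that is, falls called in both lines with a 95% interval of the difference inside 1.5-fold. On chromosome 5 at 135548824 to 135548883 (mm9) it read 8.91, 9.31 and 9.66 in ChREBPβ WT, 6.61, 6.92 and 7.20 in ChREBPβ KO, 9.17, 9.26 and 9.32 in total WT and 6.34, 6.58 and 6.72 in total ChREBP KO. KO and WT did not overlap in either line, and the KO groups overlapped each other. The fold changes were -2.39 and -2.71, with a difference of 0.32 (95% interval 0.08 to 0.57, adjusted p = 0.048 by limma). That difference lost its call in 26 of 46 refits, and Vps37d met the definition of alike in 32 of them. The 20 measured protein-coding genes nearest to Mlxipl, 10 on each side in RefSeq order, were then listed, a set chosen after the value of Vps37d had been seen. Vps37d was the only one of them called in ChREBPβ KO, where the others ranged from -0.21 to 0.14. Of the 20, 8 were called in total ChREBP KO, 3 up and 5 down, among them Tbl2 at 0.82 and Hip1 at -0.81, and 7 were called for the difference. Over all genes tested, 2.74% were called in ChREBPβ KO, 44.2% in total ChREBP KO and 25.4% for the difference.

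Across all genes, the difference between the KO effects was called for 6240 of 24521 genes (25.4%) at an adjusted p under 0.05 by limma. It was higher for 3019 (12.3%) and lower for 3221 (13.1%), and reached at least 1.5-fold for 1949. The separate contrasts were of unequal reach, with 672 genes (2.74%) called in ChREBPβ KO and 10840 (44.2%) in total ChREBP KO. The median absolute log2 change was 0.067 in the former and 0.167 in the latter. The ChREBPβ KO count was 119 with the slide as a fixed block, 471 without ChREBPβ WT replicate 6 and 1076 without ChREBPβ WT replicate 5. At these settings the total ChREBP KO count was 8260, 10883 and 10939. Shares of the 672 given below are those of the main fit. KO and WT arrays did not overlap at all for 109 genes (0.445%) in the ChREBPβ line and for 4092 (16.7%) in the total line. Of the called differences, 2865 were higher with a fall in total ChREBP KO, 3069 were lower with a rise there, and 304 belonged to genes with no call there.

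The 672 genes called in ChREBPβ KO were sorted by what they did in total ChREBP KO. The same direction was called for 508 (75.6%), and for 246 of all genes (1.00%) the same-way effects also had a 95% interval of the difference inside 1.5-fold, the definition of alike used here. The opposite direction was called for 50 genes (0.204% of all genes, 7.44% of the 672). A further 54 (8.04%) were called in ChREBPβ KO, not in total ChREBP KO, and for the difference, and 60 (8.93%) were called in ChREBPβ KO but neither in total ChREBP KO nor for the difference. Among same-way genes with a called difference, the total ChREBP KO effect was the larger for 258 and the ChREBPβ KO effect for 2, neither of which has a gene symbol. In the other direction, 10282 genes were called in total ChREBP KO only, of which 5626 had a called difference and 4656 did not. The median 95% half-width of a difference was 0.2265 on the log2 scale, which sets the size of difference that 8 arrays per group could resolve.

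**Figure D1:**
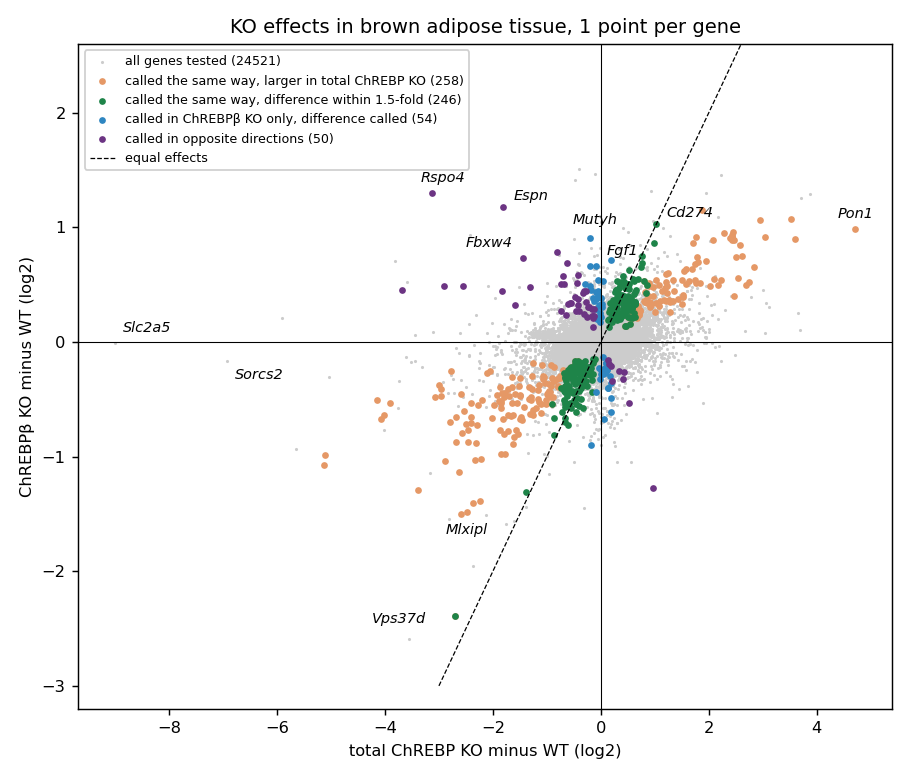
Each point is 1 gene, with the log2 change in total ChREBP KO on the x axis and that in ChREBPβ KO on the y axis, colours marking the classes (the 45 like genes with a called difference are drawn as like) and the dashed line equal effects. Of the 508 genes called the same way, the 258 with a larger total ChREBP KO effect lie flatter than the dashed line, whereas the 50 genes called in opposite directions lie to the upper left and lower right of the origin.

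The 50 genes called in opposite directions split into 41 up in ChREBPβ KO but down in total ChREBP KO, and 9 that did the reverse. Most prominent was Rspo4, which codes for a secreted R-spondin that amplifies Wnt signalling. The 250 bases before its start hold an E-box, in capitals, and are printed because the gene moved both ways in animals that lack the same E-box-binding factor in part or in full.
Rspo4, chr2:151842677-151842926, plus strand: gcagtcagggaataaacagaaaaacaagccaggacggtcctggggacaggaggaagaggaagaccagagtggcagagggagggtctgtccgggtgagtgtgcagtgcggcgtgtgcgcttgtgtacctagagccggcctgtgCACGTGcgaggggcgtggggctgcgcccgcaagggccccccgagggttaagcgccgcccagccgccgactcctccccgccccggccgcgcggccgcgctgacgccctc
Rspo4 (probe on chromosome 2 at 151700345 to 151700404, mm9) read 6.14, 7.02 and 7.27 in ChREBPβ WT and 7.22, 8.26 and 9.28 in ChREBPβ KO. It read 7.02, 7.39 and 8.15 in total WT and 4.28, 4.36 and 4.61 in total ChREBP KO, where no array read well above background. Of the ChREBPβ KO arrays 1 lay below the highest WT array, and every total ChREBP KO array stood below all others. The log2 change was 1.30 in ChREBPβ KO (adjusted p = 0.000418), a 2.46-fold rise. In total ChREBP KO the level was at least 7.66-fold lower than in WT, from means of 7.52 in WT and 4.39 in KO (adjusted p = 9.39e-14).

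Espn, which codes for the actin-bundling protein espin (chromosome 4, 151495230 to 151495289, mm9), read 5.86, 6.11 and 6.68 in ChREBPβ WT, 7.01, 7.41 and 7.79 in ChREBPβ KO, 6.41, 6.47 and 6.93 in total WT and 4.45, 4.71 and 4.92 in total ChREBP KO. No KO array overlapped its WT group in either line, and only 2 of the 8 total ChREBP KO arrays were well above background. The difference between the effects of 1.18 and -1.81 was 2.99 ± 0.16 (adjusted p = 1.34e-15). Fbxw4, an F-box protein of ubiquitin ligases (chromosome 19, 45652887 to 45652946, mm9), read 11.25, 11.63 and 11.88 against 12.13, 12.36 and 12.56 in the ChREBPβ line, WT first, and 11.05, 11.32 and 11.56 against 9.72, 9.87 and 10.02 in the total line. The groups were again separate in both lines, at a far brighter level than Espn, and the difference was 2.18 ± 0.11 (adjusted p = 5.78e-16).

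Mib2, a ubiquitin ligase of the Notch pathway, rose from 12.33, 12.57 and 12.94 to 13.00, 13.15 and 13.31 in the ChREBPβ line. It fell from 12.17, 12.48 and 12.57 to 11.67, 11.75 and 11.84 in the total line. Neither pair of groups overlapped, and the effects of 0.58 and -0.69 were of like size in opposite directions. Shroom1, a cytoskeletal adaptor, read 9.93, 10.13 and 10.45 in ChREBPβ WT and 9.79, 10.78 and 11.08 in ChREBPβ KO, then 8.99, 9.32 and 9.56 in total WT and 6.14, 6.36 and 6.58 in total ChREBP KO. Its ChREBPβ groups overlapped, its rise of 0.49 had an adjusted p of 0.0246, and its fall of 2.90 in total ChREBP KO was the larger part of the difference. Col5a3, a collagen V chain, rose by 0.50 and fell by 0.74 on the log2 scale, with 12.42, 12.60 and 13.20 in ChREBPβ WT, 12.84, 13.36 and 13.68 in ChREBPβ KO, 12.40, 12.80 and 13.15 in total WT and 11.79, 12.01 and 12.29 in total ChREBP KO. Prrt4 changed by 0.78 and -0.80. Trim80 rose by 0.69 in ChREBPβ KO and was well above background on 5 of 8 total WT arrays and on no total ChREBP KO array, at least 1.11-fold lower there (means 4.74 and 4.11, adjusted p = 0.000228).

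The 41 also held enzymes of fuel handling that are on the gene lists, among them Pfkp, a phosphofructokinase (0.27 and -0.73), and Bcat1, the cytosolic branched-chain aminotransferase (0.52 and -0.43). Of 3 Bcat1 probes, 1 was called with the other sign for the difference.

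Of the 9 genes of the reverse direction, the largest difference, -2.24, belonged to a transcript with no gene symbol (-1.27 and 0.97), and those with a symbol had differences of -0.72 to -0.28. Slc46a3, a lysosomal transporter, read 9.07, 9.66 and 9.88 in ChREBPβ WT and 9.09, 9.32 and 9.45 in ChREBPβ KO, and 8.78, 9.01 and 9.22 in total WT and 9.31, 9.44 and 9.46 in total ChREBP KO. The KO groups of both lines stood together, and the WT groups lay on either side of them, a mean of 9.63 ± 0.27 (SD, n = 8) in the ChREBPβ line and 9.01 ± 0.16 in the total line. Paox, the peroxisomal polyamine oxidase, read 12.43, 12.57 and 12.79 against 12.06, 12.35 and 12.51 in the ChREBPβ line and 12.18, 12.41 and 12.55 against 12.58, 12.82 and 13.11 in the total line, again WT first. Its WT groups overlapped while its KO groups did not, with a difference of -0.69 ± 0.10 (adjusted p = 4.29e-06). Bri3, a membrane protein, fell by 0.34 and rose by 0.22, Vac14, a scaffold of the PIKfyve lipid kinase complex, fell by 0.21 and rose by 0.20, and Rbx1, the RING subunit of cullin ligases, fell by 0.15 and rose by 0.13. Cdv3 (-0.19 and 0.15) and Spata1 (-0.26 and 0.33) were the others with a symbol.

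The count of genes called in opposite directions depended on single arrays and on the slide. It was 97 without ChREBPβ WT replicate 5, which kept 49 of the 50. A fixed block for the slide left 7, of which 5 were among the 50. Only 2 of the 15 slides held a ChREBPβ KO array beside a ChREBPβ WT array, and 1 held a total ChREBP KO array beside a total WT array. Fbxw4 and Mib2 were called in opposite directions under all 46 refits run, while Paox was under 25 of the 46 and Rbx1 under 12.

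**Figure D2:**
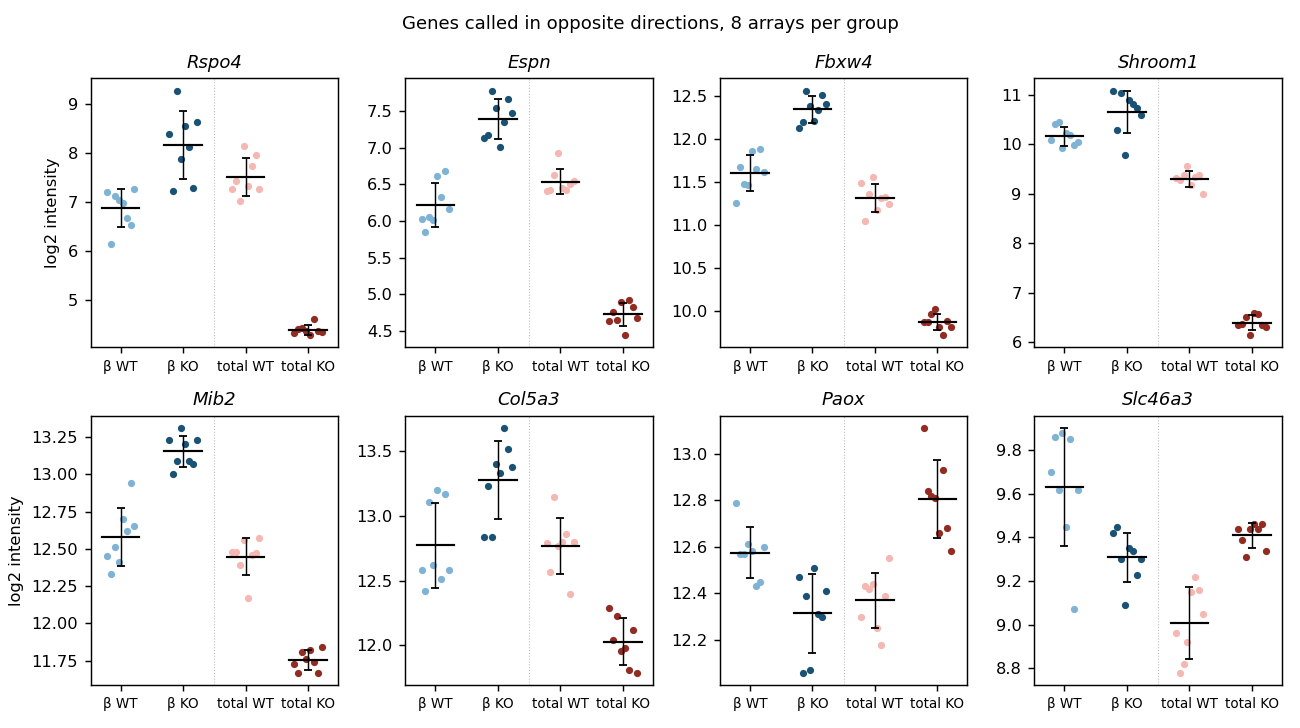
Log2 intensity on each of 8 arrays per group (points), with the group mean and SD (bars), for 8 genes called in opposite directions. In the first 6 genes the ChREBPβ KO arrays shift up and the total ChREBP KO arrays shift down against their own WT, and in Paox and Slc46a3 the shifts are reversed.

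The 246 genes with like effects comprised 127 that rose and 119 that fell in both lines. Only 6 of the former and 9 of the latter changed by at least 1.5-fold in ChREBPβ KO. For most members the bound was thus wider than the ChREBPβ KO change, and being alike by this definition does not mean equal effects. Phyh, for instance, met it with rises of 0.16 and 0.55. Among those that rose, Cd274, which codes for the immune checkpoint ligand PD-L1 (chromosome 19, 29462363 to 29462422, mm9), read 10.82, 11.18 and 11.67 in ChREBPβ WT, 11.88, 12.20 and 12.84 in ChREBPβ KO, 10.20, 10.33 and 10.97 in total WT and 11.07, 11.52 and 11.85 in total ChREBP KO. No KO array overlapped its own WT group, while the total ChREBP KO arrays did overlap the ChREBPβ WT arrays, because the total line read lower in both genotypes. The rises were 1.03 and 1.02, 2.04-fold and 2.03-fold, and the difference of 0.01 had a 95% interval of -0.38 to 0.40. Esrrb, an orphan nuclear receptor related to the oestrogen receptors, read 7.74, 8.25 and 8.68 in ChREBPβ WT, 8.86, 9.02 and 9.24 in ChREBPβ KO, 7.89, 8.60 and 8.87 in total WT and 9.21, 9.45 and 10.08 in total ChREBP KO. Its groups were separate in both lines, with rises of 0.86 and 0.99 and an interval of the difference from -0.50 to 0.24.

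Nr0b1, the nuclear receptor DAX1 that acts as a corepressor, rose by 0.75 in ChREBPβ KO from 4.65, 4.95 and 5.35 to 5.41, 5.69 and 6.43. In total WT no array was well above background (4.11, 4.43 and 4.54), and in total ChREBP KO it read 4.84, 5.03 and 5.63, at least 1.54-fold higher (means 4.38 and 5.15, adjusted p = 4.97e-06). These were dim signals, and the groups did not overlap in either line. The rise in total ChREBP KO is a lower bound, so whether the effects on Nr0b1 were alike cannot be decided. Prkd1, the protein kinase D1, rose by 0.54 and 0.80, and Sctr, the secretin receptor, by 0.55 and 0.59. Prkd1 read 9.75, 9.99 and 10.19 in ChREBPβ WT, 10.25, 10.55 and 10.72 in ChREBPβ KO, 9.44, 9.55 and 9.71 in total WT and 10.24, 10.37 and 10.53 in total ChREBP KO, with groups separate in both lines. Its interval of -0.47 to -0.06 lay inside 1.5-fold although the difference itself was called (adjusted p = 0.0499), as it was for 45 of the 246 genes. The Prkd1 difference lost its call in 31 of 46 refits, all of which kept the gene as alike.

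After Vps37d, the largest falls of like genes by their measured values were those of Dmrtc1a, Slc27a1, Egln3 and Rhob. Slc27a1, the fatty acid transport protein FATP1 (chromosome 8, 74110256 to 74110315, mm9), read 10.60, 11.23 and 11.89 in ChREBPβ WT, 9.95, 10.40 and 10.73 in ChREBPβ KO, 11.34, 11.61 and 12.33 in total WT and 10.46, 10.88 and 11.07 in total ChREBP KO. Only its ChREBPβ groups overlapped, the falls were 0.81 and 0.87 on the log2 scale, and the interval of the difference was -0.37 to 0.48. Rhob, a small GTPase of endosomes, read 11.92, 12.35 and 12.65 against 11.43, 11.67 and 11.89 in the ChREBPβ line and 11.94, 12.16 and 12.51 against 11.05, 11.45 and 11.90 in the total line, WT first. Its KO and WT arrays were separate in both lines, with falls of 0.69 and 0.66. Egln3, a prolyl hydroxylase that marks hypoxia-inducible factors, fell by 0.72 and 0.60, from medians of 8.33 to 7.44 and of 9.52 to 9.03. The lines differed more in Egln3 than the genotypes did, since no array of one line overlapped those of the other within a genotype. Dmrtc1a fell below background in both KO groups, to at least 2.17-fold and at least 1.88-fold lower than WT, with WT means of 5.74 and 5.50 and KO means of 4.43 and 4.11 (adjusted p = 4.74e-06 and 1.66e-08).

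Several other genes fell or rose by nearly equal amounts without meeting the bound of 1.5-fold, because their spread was too wide. Glul, glutamine synthetase, changed by -0.99 in both lines with an interval of the difference from -0.63 to 0.62. Rgs16, a regulator of G protein signalling that responds to carbohydrate, changed by -1.57 and -1.61 with an interval of -0.82 to 0.90, and Cbr3, a carbonyl reductase, by 0.81 and 0.85 with one of -0.66 to 0.58. In all, 47 genes were called the same way with no called difference and an interval reaching past 1.5-fold. On the gene lists, like effects were also met by Gsk3b, a kinase inhibited by insulin signalling (-0.45 and -0.51), Rxrg, a retinoid X receptor (0.31 and 0.28), Edem1, which directs misfolded glycoproteins out of the endoplasmic reticulum (0.39 and 0.51), Pdhx, a subunit of pyruvate dehydrogenase (-0.29 and -0.32), and Lamc3, a laminin chain (-0.42 and -0.40). The number of like genes was 159 without ChREBPβ WT replicate 6, 402 without ChREBPβ WT replicate 5 and 27 with the slide as a fixed block, where 24 were among the 246.

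The 54 genes called in ChREBPβ KO with a called difference and no call in total ChREBP KO comprised 28 that rose and 26 that fell. Fgf1, a fibroblast growth factor with metabolic actions in fat, read 11.61, 11.86 and 12.43 in ChREBPβ WT, 12.32, 12.56 and 12.81 in ChREBPβ KO, 11.12, 11.66 and 11.98 in total WT and 11.45, 11.60 and 11.77 in total ChREBP KO. Every ChREBPβ KO array stood above all arrays of the other groups except 1 ChREBPβ WT array at 12.43, and the total line groups overlapped throughout. The effects were 0.67 and -0.09, with a difference of 0.75 ± 0.15 (adjusted p = 0.000432). Ebf1, a transcription factor of adipocyte and B cell differentiation, read 10.94, 11.19 and 11.41 against 11.50, 11.55 and 12.26 in the ChREBPβ line and 11.03, 11.41 and 11.77 against 11.12, 11.43 and 11.72 in the total line, WT first. Its ChREBPβ groups were separate, and the effects of 0.54 and -0.06 differed by 0.61 ± 0.17 (adjusted p = 0.0069).

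Mutyh, a DNA glycosylase of base excision repair, rose by 0.90 in ChREBPβ KO, from 8.25, 9.32 and 9.93 to 9.65, 10.13 and 10.84. In the total line it read 7.94, 8.11 and 8.94 in WT and 7.75, 8.21 and 8.54 in KO, a change of -0.19. The ChREBPβ WT arrays of Mutyh were the most spread, with an SD of 0.61, and overlapped the KO arrays. Enc1, an actin-binding adaptor, changed by 0.72 and 0.18, and Kirrel, a nephrin-related adhesion protein, by 0.53 and 0.04. Falls were smaller: Ctdspl, a phosphatase, changed by -0.43 and -0.09, Fgf11, an intracellular member of the FGF family, by -0.33 and -0.01, and Dnah10, an axonemal dynein chain, by -0.49 and 0.19. For Ctdspl and Fgf11 the ChREBPβ WT arrays stood above both groups of the total line, at medians of 13.04 and 9.51 against 12.52 and 9.05 in total WT, and the ChREBPβ KO medians, 12.66 and 9.19, came nearer to them. Fgf1 and Ssx2ip held this class under all 46 refits, and Fgf11 under 20. The class held 35 genes without ChREBPβ WT replicate 2, 32 without ChREBPβ KO replicate 8 and 136 without ChREBPβ WT replicate 5, and 6 with the slide as a fixed block.

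**Figure D3:**
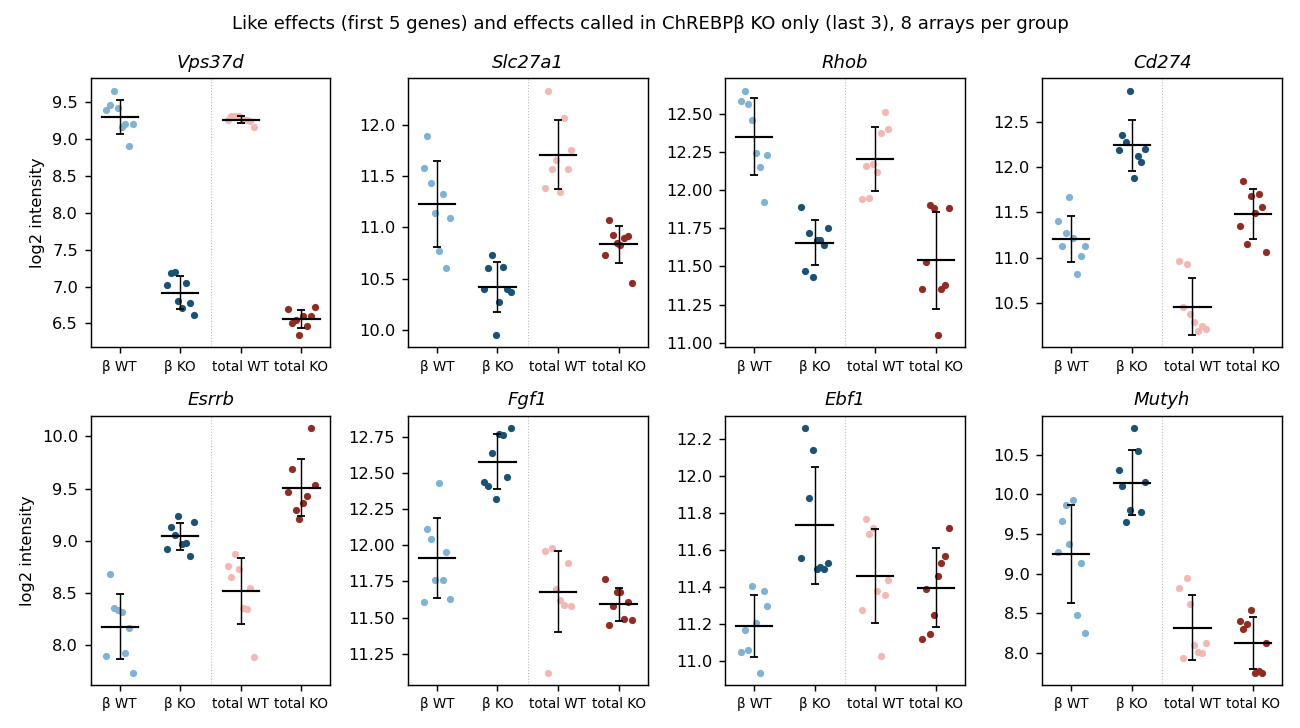
Log2 intensity on each of 8 arrays per group (points), with mean and SD (bars), for 5 genes with like effects and 3 genes called in ChREBPβ KO with no call in total ChREBP KO. Vps37d falls and Cd274 rises by nearly the same step in both lines, while Fgf1 shifts up in the ChREBPβ line and overlaps in the total line.

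The largest differences belonged to genes that all but vanished, or appeared, in total ChREBP KO. For Slc2a5, the fructose transporter GLUT5 (chromosome 4, 149517775 to 149517834, mm9), the promoter window is printed because the gene had the largest difference of all those with a symbol. The window holds no CACGTG.
Slc2a5, chr4:150119094-150119343, plus strand: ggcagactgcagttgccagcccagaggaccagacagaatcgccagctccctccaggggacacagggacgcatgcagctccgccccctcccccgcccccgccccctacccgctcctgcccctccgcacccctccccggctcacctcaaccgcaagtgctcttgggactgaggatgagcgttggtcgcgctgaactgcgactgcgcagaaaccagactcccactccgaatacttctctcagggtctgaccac
Slc2a5 read 13.94, 14.23 and 14.54 in ChREBPβ WT, 13.89, 14.24 and 14.46 in ChREBPβ KO, 13.58, 13.89 and 14.19 in total WT and 4.39, 4.96 and 5.25 in total ChREBP KO. Its ChREBPβ groups lay on top of each other, with a change of -0.01, and its difference was 8.99 ± 0.15 (adjusted p = 1.79e-29). Sorcs2, a sorting receptor of the sortilin family, changed by -0.17 and -6.92, and Atp4b, known as the β subunit of the gastric proton pump, by 0.21 and -5.90. Bmp8b, a secreted factor known to raise brown fat thermogenesis, read 7.55, 8.34 and 8.62 in ChREBPβ WT, 7.76, 8.83 and 9.18 in ChREBPβ KO, 7.85, 8.19 and 9.31 in total WT and 4.54, 4.74 and 5.26 in total ChREBP KO. Its difference was 4.11 ± 0.28, and its change of 0.52 in ChREBPβ KO did not pass the test (adjusted p = 0.177).

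Of the genes at the other end, some moved the same way in both lines by unequal amounts. Pon1, paraoxonase 1, read 8.35, 9.23 and 9.82 in ChREBPβ WT, 9.25, 10.37 and 10.73 in ChREBPβ KO, 7.53, 8.18 and 8.92 in total WT and 12.64, 12.88 and 13.27 in total ChREBP KO. It rose 1.98-fold and 26.3-fold, a difference of -3.73 ± 0.30 (adjusted p = 2.6e-11). Nnmt, nicotinamide N-methyltransferase, rose 1.86-fold and 12.1-fold, with a highest ChREBPβ KO array of 13.35 and a lowest total ChREBP KO array of 15.51. In contrast, Kcnc2, a potassium channel subunit, and Sgk2, a serum and glucocorticoid-induced kinase, rose by 3.66 and 3.69 in total ChREBP KO and had changes of 0.25 and 0.11 in ChREBPβ KO that did not pass the test (adjusted p = 0.72 and 0.934). Mfsd2a, a lysophospholipid transporter, differed between the WT groups as well, at 4.97 to 7.06 in ChREBPβ WT and 7.49 to 10.13 in total WT, so its difference of -2.81 was taken from unequal starting levels.

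The genes were then grouped into 42 lists of pathways and complexes, each described by counts and by the median effect of its measured members, beside the same over all genes tested. Over all genes the median change was -0.003 in ChREBPβ KO and 0.013 in total ChREBP KO, and 25.4% were called for the difference. Lists in which the effects differed most were those of sugar and lipid synthesis on one side and of mitochondrial oxidation and clock output on the other.

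**Figure D4:**
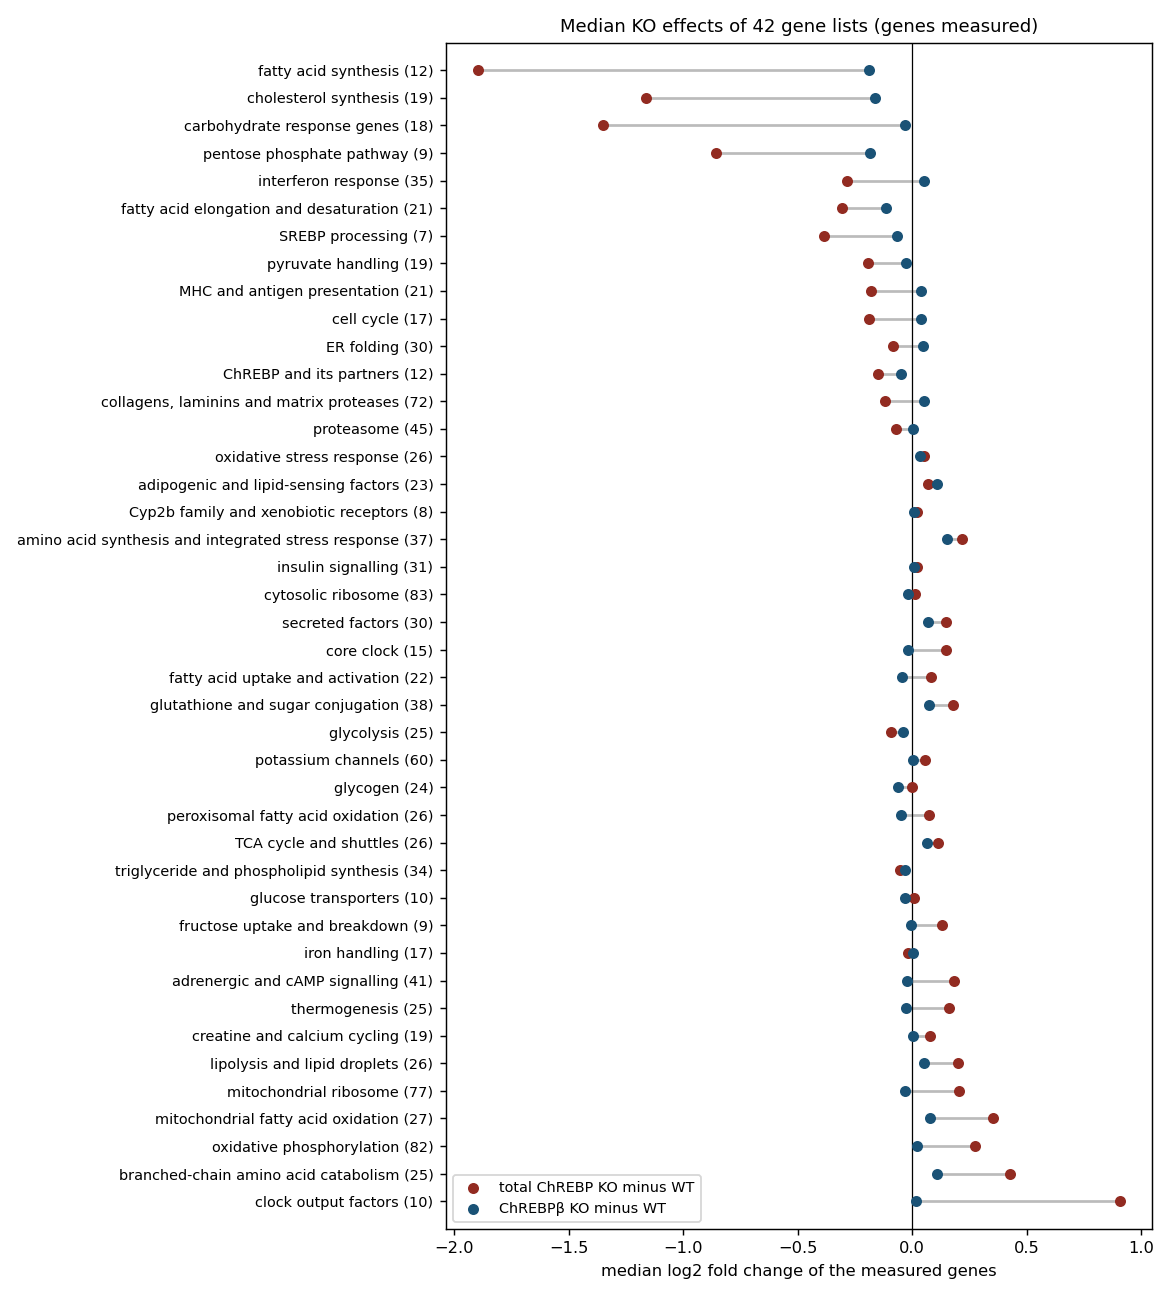
Median log2 change of the measured genes of each of 42 lists in ChREBPβ KO (blue) and total ChREBP KO (red), with the number measured in brackets and lists ordered by the median difference. The ChREBPβ KO medians lie within 0.19 of 0 in all lists, whereas total ChREBP KO medians run from -1.90 for fatty acid synthesis to 0.91 for clock output factors.

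Fatty acid synthesis stood at the top. Of its 12 measured genes, 10 were called higher and 1 lower for the difference, with medians of -0.19 in ChREBPβ KO and -1.90 in total ChREBP KO. In ChREBPβ KO itself, 3 of the 12 were called down and none up, against 2.74% of all genes called. At an unadjusted p under 0.05 there, 6 were down and none up. Acly, which supplies cytosolic acetyl-CoA, changed by -0.13 and -3.61, and Acaca, acetyl-CoA carboxylase, by -0.17 and -3.52, the ChREBPβ KO changes not passing the test (adjusted p = 0.57 and 0.28). Mcat, the malonyl transferase of mitochondrial fatty acid synthesis, was the exception, changing by -0.19 and 0.09 for a difference of -0.28 (adjusted p = 0.0024). The mean of the list on single arrays, set to its own WT mean, ran from -0.23 to 0.11 in ChREBPβ WT, -0.38 to -0.11 in ChREBPβ KO, -0.03 to 0.04 in total WT and -2.02 to -1.56 in total ChREBP KO. In elongation and desaturation 9 of 21 were higher and 1 lower, among them Elovl6 (-0.12 and -2.45) and Scd3 (-0.45 and -2.71), and in cholesterol synthesis 14 of 19 were higher and 1, Ebp, lower. In ChREBPβ KO, 1 elongation or desaturation gene and 2 cholesterol synthesis genes were called down, and none up. At an unadjusted p under 0.05 there, 7 of the former were down and 1 up. Of the cholesterol synthesis genes, 6 were down and none up. Sc5d and Dhcr7, late enzymes of that pathway, changed by -0.06 and -1.93 and by -0.16 and -1.42. The 18 known carbohydrate response genes gave 12 higher and 1 lower, with medians of -0.03 and -1.35. This list shares members with those of fatty acid synthesis and elongation, among them Acly, Acaca and Elovl6, so the counts are not separate.

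The pentose phosphate pathway, the source of cytosolic NADPH, was the list in which ChREBPβ KO itself moved most often relative to its size, with 4 of 9 genes down, against 2.74% of all genes called. In total ChREBP KO 7 were down and 1 up, and 6 differences were higher and 1 lower, with medians of -0.18 and -0.86. Tkt, transketolase, fell by 0.18 in ChREBPβ KO (adjusted p = 0.0044) and by 1.25 in total ChREBP KO. Rpia, ribose-5-phosphate isomerase, fell by 0.41 and 1.72, and Rbks, ribokinase, by 0.50 and 0.86 with no called difference (0.36, adjusted p = 0.14). Pgd, which makes NADPH, had values of -0.23, without a call (adjusted p = 0.14), and -1.68. List means on single arrays ran from -0.12 to 0.17 in ChREBPβ WT, -0.29 to -0.05 in ChREBPβ KO, -0.09 to 0.16 in total WT and -0.87 to -0.62 in total ChREBP KO, so the ChREBPβ groups overlapped and the total groups did not.

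Glucose handling was mixed. Glycolysis had 10 differences higher and 4 lower among 25 genes, led by Hk2, hexokinase 2 (-0.11 and -1.92), and Gpi1, glucose-6-phosphate isomerase, which fell in both lines by 0.29 and 1.08. Among 24 glycogen genes 5 were higher and 6 lower. Pygl, the liver-type glycogen phosphorylase, fell by 0.25 and 2.77, and Gbe1, the branching enzyme, fell by 1.66 in total ChREBP KO and read -0.03 in ChREBPβ KO. Of 10 glucose transporters 3 were higher and 3 lower: Slc2a4, the insulin-responsive GLUT4, changed by 0.12 and -0.93 and Slc2a1, the ubiquitous GLUT1, by 0.01 and 0.77. No transporter of this list was called in ChREBPβ KO by limma, and 1 had an unadjusted p under 0.05 there. Beside Mlxipl, the list of ChREBP and its partners held Mlx, its obligate partner (-0.15 and -0.71, difference 0.55, adjusted p = 0.0025), and Mxd1, a competing member of the Max network (-0.21 and 0.55, difference -0.76).

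Mitochondrial genes moved the other way in total ChREBP KO. Of 82 genes of oxidative phosphorylation, 70 were up and 2 down in total ChREBP KO, 2 were up in ChREBPβ KO, and 60 differences were lower and none higher, also at an unadjusted p under 0.05 (73.2% called against 25.4% of all genes). The effects were small and even, with medians of 0.02 and 0.27, and 74 of the 82 had an interval of the difference inside 1.5-fold. Ndufb10, a complex I subunit, changed by 0.01 and 0.63 and Ndufs7, another, by 0.08 and 0.67, while Atp5b, the β subunit of ATP synthase, rose alike by 0.13 and 0.14. On single arrays the list mean ran from -0.06 to 0.06 in ChREBPβ WT, -0.04 to 0.07 in ChREBPβ KO, -0.10 to 0.10 in total WT and 0.24 to 0.33 in total ChREBP KO, with no overlap of the last group with any other. The higher adipocyte and brown fat marker levels in total ChREBP KO, given above, moved with this list, and their part in it was not tested. The mitochondrial ribosome had 39 of 77 differences lower and 2 higher, mitochondrial fatty acid oxidation 13 of 27 lower and none higher (1 at an unadjusted p under 0.05), and branched-chain amino acid catabolism 13 of 25 lower and 2 higher. Bckdhb, a subunit of the branched-chain ketoacid dehydrogenase, changed by 0.14 and 1.17, and Oxct1, which activates ketone bodies, rose in both by 0.26 and 1.27. Acad11, an acyl-CoA dehydrogenase, read -0.32 in ChREBPβ KO, short of the threshold (adjusted p = 0.079), and rose by 0.72 in total ChREBP KO.

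Cytosolic ribosomal genes had small changes in both lines. Of 83, 19 were up and 10 down in total ChREBP KO, 4 differences were higher and 13 lower (20.5%), none was called in ChREBPβ KO (2 at an unadjusted p under 0.05), and 80 had an interval inside 1.5-fold, with medians of -0.02 and 0.01. The proteasome had 13 of 45 higher and 2 lower, with 41 intervals inside 1.5-fold.

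Clock output factors, which carry the circadian oscillator's phase to metabolic genes, showed the largest rise of any list in total ChREBP KO. Of 10 genes, 8 were up and 1 down in total ChREBP KO, none was called in ChREBPβ KO, and 7 differences were lower and none higher, with medians of 0.02 and 0.91. At an unadjusted p under 0.05, 1 gene was up and 2 were down in ChREBPβ KO, and 1 difference was higher. Hlf, a PAR bZIP factor, changed by 0.20 and 1.86, and Dbp, another, by -0.38 and 1.62, the latter gene losing the call for its difference in 8 of 46 refits. Wee1, a kinase under clock control, changed by -0.62 and 0.47, where the ChREBPβ KO value missed the threshold (adjusted p = 0.051) and the difference of -1.10 was called (adjusted p = 0.0014). On single arrays the list mean ran from -0.41 to 0.26 in ChREBPβ WT and from -0.32 to 0.18 in ChREBPβ KO, a wider spread than the -0.18 to 0.14 of total WT, and from 0.55 to 1.01 in total ChREBP KO. In the core clock 4 of 15 differences were lower and 2 higher, including the period genes Per2 (-0.21 and 1.55) and Per3 (difference -1.71), both lower. Of 9 promoter windows of the clock output genes, 4 held CACGTG, compared with 8.91% of the windows of all genes tested. This was the highest share among the lists counted. The others were carbohydrate response genes (3 of 16), core clock (3 of 19) and oxidative phosphorylation (7 of 72). Fatty acid synthesis had 1 of 16 and the pentose phosphate pathway 0 of 10.

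Of the immune lists, interferon response had a higher share of called differences than all genes tested (42.9% against 25.4%). Of 35 interferon response genes 13 differences were higher and 2 lower and none was called in ChREBPβ KO (3 up at an unadjusted p under 0.05), with medians of 0.05 and -0.28. Oas1a and Usp18, classical interferon-stimulated genes, changed by 0.04 and -1.23 and by 0.10 and -1.04, while Ifi27l2a went the other way (0.37 and 1.66). List means ran from -0.28 to 0.75 in total WT and -0.40 to -0.09 in total ChREBP KO, so the groups overlapped, and 1 array in each WT group stood well above the others. The lower macrophage markers in total ChREBP KO, given above, moved with this list, and their part in it was not tested. Among 21 genes of MHC and antigen presentation 1 was higher and 1 lower (9.52%, below the 25.4% of all genes).

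Some lists held several calls in ChREBPβ KO, where 2.74% of all genes tested were called. Of 30 secreted factors 5 rose in ChREBPβ KO and none fell (2 down at an unadjusted p under 0.05), against 8 up and 5 down in total ChREBP KO. Metrnl, a secreted meteorin-like factor, rose by 0.44 in ChREBPβ KO and read 0.17 in total ChREBP KO, a difference that was not called (0.28, adjusted p = 0.16). Fgf21, a hepatokine also made by brown fat, read 0.93 in ChREBPβ KO, short of the threshold (adjusted p = 0.065), and fell by 2.42 in total ChREBP KO. The list mean ran from -0.12 to 0.17 in ChREBPβ WT and from 0.19 to 0.32 in ChREBPβ KO, with no overlap, against -0.06 to 0.08 and -0.18 to 0.05 in the total line. This list was drawn up with earlier results known and holds Fgf1, Epdr1, Rspo4 and C1qtnf7. The paper lists these genes as raised in ChREBPβ-deficient brown fat from the same arrays. Neither the count of rises nor the list mean is therefore independent of these data. Of 23 adipogenic and lipid-sensing factors 4 rose in ChREBPβ KO, 3 of them alike in both lines, against 1.00% of all genes alike. The 3 include Nr0b1, which the paper lists from the same arrays as raised in both KO. These counts are therefore not independent of these data either. Ppara, the fasting-responsive nuclear receptor, changed by 0.10 and 1.48. Of 72 collagens, laminins and matrix proteases 5 rose and 2 fell in ChREBPβ KO, against 15 and 26 in total ChREBP KO. For the difference 14 were higher and 6 lower (27.8%, near the 25.4% of all genes). Mmp23, a membrane-bound matrix protease, changed by 0.29 and -0.87, and Lamb3, a laminin chain, by 0.38 and 1.43.

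Lipid handling outside synthesis was split within lists. Among 22 genes of fatty acid uptake and activation, 6 differences were higher and 6 lower. Acsl5, an acyl-CoA synthetase, fell in both by 1.29 and 3.39, while Fabp3, a fatty acid-binding protein of oxidative tissue, rose in both by 0.55 and 2.09. Lpl, lipoprotein lipase, read -0.05 in ChREBPβ KO and rose by 0.97 in total ChREBP KO. In lipolysis and lipid droplets 4 of 26 were higher, among them Plin2 (0.05 and -1.41) and G0s2, the inhibitor of adipose triglyceride lipase (0.75 and -0.77, the former with an adjusted p of 0.057), and 10 were lower, among them Cidec (-0.29 and 0.57). Of 25 thermogenesis genes 4 were higher and 7 lower. Ucp1, the uncoupling protein, read -0.01 and -0.11 with a difference of 0.10 (95% interval -0.02 to 0.22, adjusted p = 0.23), and Ppargc1a, the coactivator of mitochondrial biogenesis, -0.03 and 1.15. Ckb, the creatine kinase of the creatine cycle, rose in both by 0.53 and 2.74.

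Iron and potassium transport genes were also listed. Slc40a1, the iron exporter ferroportin, rose by 0.92 in ChREBPβ KO and 3.05 in total ChREBP KO, while Tfrc, the transferrin receptor that takes iron up, read 0.05 and -1.23. Hephl1, a ferroxidase, read -0.94 in ChREBPβ KO (adjusted p = 0.15) and fell by 5.65 in total ChREBP KO. Of 17 iron genes 4 differences were higher and 7 lower (64.7%, against 25.4% of all genes). Of 60 potassium channel genes 6 were higher and 8 lower (23.3%), near the share of all genes.

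**Figure D5:**
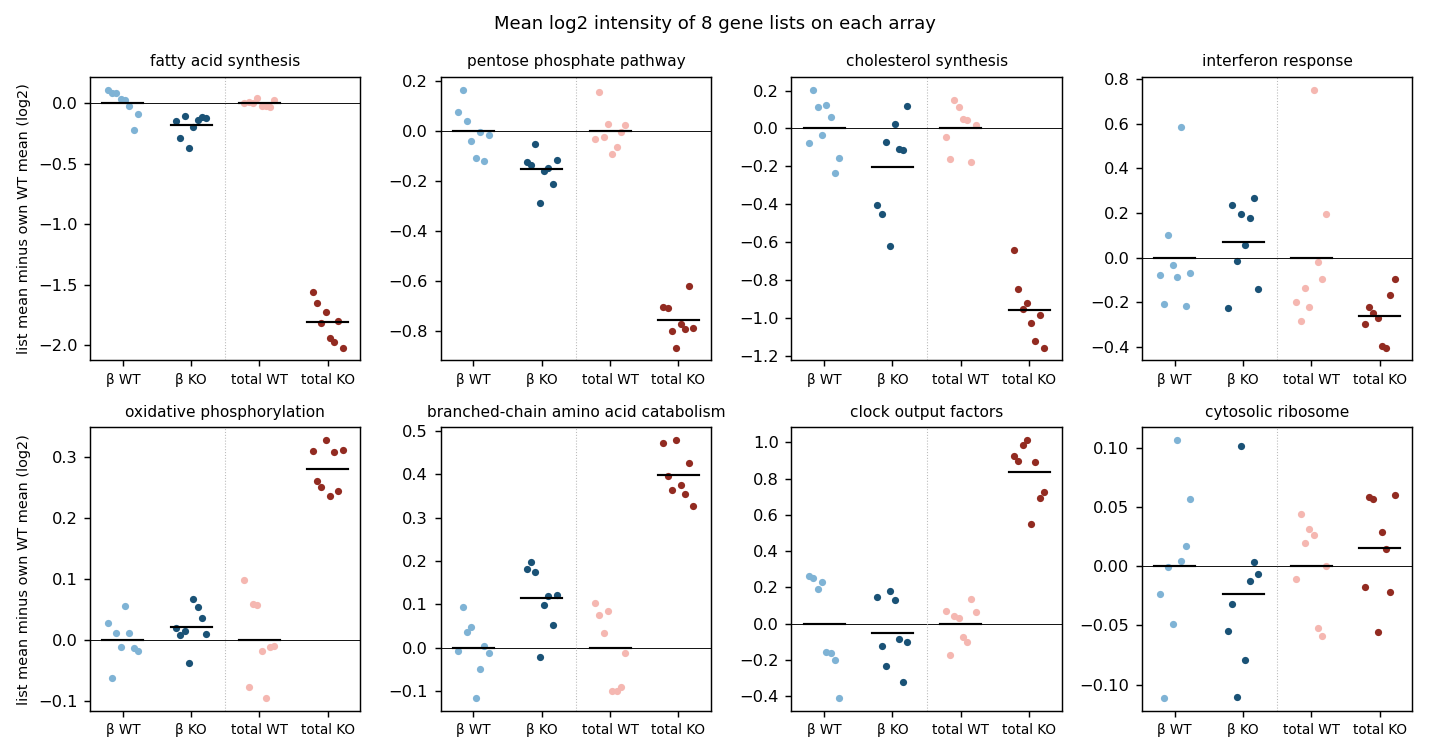
Mean log2 intensity over the measured genes of 8 lists on each array, minus the mean of that line's own WT group (points, with group means as bars). The total ChREBP KO arrays are clear of all other arrays in fatty acid synthesis, pentose phosphate, cholesterol synthesis, oxidative phosphorylation, branched-chain amino acid catabolism and clock output, and overlap the others in interferon response and cytosolic ribosome.

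E-boxes were counted in the promoter windows of each class as a description. CACGTG was present in 240 of 2443 windows of genes with a higher difference (9.82%) and in 256 of 2530 of those with a lower one, against 8.91% for all genes tested. In the smaller classes it was in 3 of 39 windows of genes up in ChREBPβ KO and down in total ChREBP KO, and in 3 of 11 of the reverse class, those of Bri3, Cdv3 and Vac14. Like genes gave 5 of 95 windows for those that rose and 8 of 103 for those that fell. Genes called in ChREBPβ KO with no call in total ChREBP KO gave 1 of 22 for rises and 5 of 22 for falls. A match in a window is a match of letters and says nothing of binding.

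Of the 63 genes chosen for the size or class of their difference, 46 had a difference of the same sign within all 4 wash batches. The genes were chosen on all arrays together and the wash batches are parts of those arrays, so this count is no separate support. The like genes among the 63 had small differences, for which a sign says little. With the wash batch as a block, 6976 differences were called, 51 in opposite directions and 182 alike, and with the muscle and liver marker means of each array as covariates, 6523, 57 and 260. At an unadjusted p under 0.05 in both lines, 378 genes (1.54%) moved in opposite directions.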

How the data were processed

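RNA of 32 brown adipose samples was hybridised to 1-colour Agilent arrays. The authors deposited scanner files with the intensity of each spot (Agilent Feature Extraction 10.10.1.1) and a table of log2 values that, per their methods, had been filtered and quantile normalized, with replicated probes merged by their median. The deposited log2 table (37304 probes) gave the values here. Values remade from the median intensity differed by 0.0113 on average. A gene is its brightest probe, and 17684 of 24521 names matched a RefSeq symbol. limma 3.58.1 in R 4.3.3 (lmFit, eBayes) fitted 4 group means to 32 arrays, leaving 28 residual degrees of freedom. P values are two-sided, Benjamini-Hochberg adjusted over all 37304 probes before 1 probe per gene was taken, and called under 0.05. The fit was tested on simulated data. A probe well above background on no array of a group has a bound there, taken against the lowest signals well above background. The 48 missing values were dropped from their probes' fits. Members, classes and lists were chosen with earlier results of these data known. Named genes are the extremes of each class and, per list, the 4 largest and 2 smallest differences. Coordinates are mm9, and sequences are RefSeq GRCm38.p6. Some items are not reported here. Alternatives covered scaling, background correction, filters, batch and replicate blocks, array weights, thresholds, probe choice and each array left out in turn.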

Additional observations from a re-analysis of the deposited data

Results flagged for a closer look

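Single arrays that stood apart from the other 7 of their group were sought among 36 genes, and 10 of 144 groups held one, where chance gives about 1 in 20. In total WT these were replicate 8 of Vps37d at 9.17, replicate 4 of Espn at 6.93, replicate 5 of Mib2 at 12.17 and replicate 2 of Fgf1 at 11.12 on the log2 scale. In total ChREBP KO they were replicate 6 of Rspo4 at 4.61, replicate 3 of Sctr at 9.93, replicate 4 of Sorcs2 at 6.38 and replicate 7 of both Bmp8b at 5.26 and Hephl1 at 6.45. In ChREBPβ KO, replicate 7 of Bmp8b read 7.76.

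The KO effects differed by a test of the difference itself for 6240 genes. Of these, 50 were called in opposite directions and 54 in ChREBPβ KO with no call in total ChREBP KO.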

How the results depend on the processing

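No called difference of a named gene changed sign in any of 46 refits, while 37 named genes with no called difference did so in at least 1. Single probes could differ from the brightest one, as given for Mlxipl and Bcat1. Of 13180 repeated values for 287 named genes, 12916 kept their side of the threshold, 199 lost and 65 gained a call. With the slide as a fixed block, 7 genes were called in opposite directions, 27 were alike and 6 were called in ChREBPβ KO with no call in total ChREBP KO. Array weights gave 84 of the last. At an adjusted p under 0.01 the counts were 3809 for the difference, 15 opposite, 84 alike and 16 in ChREBPβ KO without a call in total ChREBP KO, and 1949 differences reached 1.5-fold. The Mlxipl difference was 0.14 with the mean of its probes. Leaving out each array in turn gave 5799 to 6410 differences, 34 to 97 opposite genes, 159 to 402 alike, 32 to 136 called in ChREBPβ KO without a call in total ChREBP KO, and 0.97 to 1.03 for Mlxipl. The cause of these shifts was not tested. Replicate numbers were not taken as pairs, since not every same-numbered KO and WT array had deviations correlated over 0.1: 6 of 8 did in the ChREBPβ line (-0.20 to 0.53) and 0 of 8 in the total line (-0.31 to 0.08). With the replicate block the counts were 6356, 62, 277 and 59, and the Mlxipl difference was 1.00. The number of arrays limits the precision, and values near background give bounds only.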
